A study of Homo sapiens with 6 samples.

Results

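A short panel of genes is commonly used to place a carcinoma cell between an epithelial and a mesenchymal state, and 10 such genes were followed here across METTL3 loss in HCT116 cells, an established human colorectal carcinoma line. The panel was taken as rows of the count tables by gene symbol, with earlier results of these data known, and holds 10 of the 56638 symbols listed there: the cadherins CDH1 and CDH2, the intermediate filament gene VIM, the transcription repressors SNAI1, SNAI2, ZEB1, ZEB2 and OVOL1, and the splicing regulators ESRP1 and ESRP2. Bulk RNA-seq was available for 3 WT and 3 METTL3-KO samples, all grown in McCoy's 5a medium with fetal bovine serum and labelled as passages 16 to 19. METTL3 encodes the catalytic subunit of the RNA m6A methyltransferase. By the labels and the study's methods, it was disrupted by lentiviral CRISPR-Cas9 with puromycin selection, and the METTL3-KO samples came from 1 monoclonal line. The deposited files carry other sample names, NC numbered 1, 3 and 4 for WT and SiM3 for METTL3-KO, which do not name a knockout, and the groups and replicate numbers used here are those of the labels. If the labels hold, loss of METTL3 cannot be told apart from other properties of that clone. Since the labels do not say that replicates were separate cultures, the p-values measure the spread between these samples, which may be technical.

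In epithelial cells, E-cadherin (the product of CDH1) joins neighbouring cells, and the ESRP proteins direct epithelial forms of splicing. SNAI and ZEB factors bind E-box words in promoters and repress CDH1 and other epithelial genes, while OVOL1 and the miR-200 microRNAs act against the ZEB factors. Carcinoma cells that move toward the mesenchymal state typically lose E-cadherin and ESRP1 and gain vimentin, N-cadherin (CDH2) and ZEB1.

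The libraries held 20936091 to 30142144 counts on genes. METTL3 had 841, 682 and 623 counts in WT and 219, 169 and 162 in METTL3-KO samples. Its fitted log2 fold change was -2.04 (adjusted p = 3.27e-07, SE 0.0892), where every p given as adjusted comes from edgeR's quasi-likelihood test and was corrected over all tested genes by the Benjamini-Hochberg method. Replicate 3 stood apart in both groups: the chi-square per gene, near 1 for sampling noise alone, was 2.44 and 2.23 between replicates 1 and 2 of WT and METTL3-KO, but 20.7 to 20.8 and 7.61 to 10.1 in the pairs with replicate 3. The deviation of a sample from its group mean followed transcript length across 10024 genes, with Spearman correlations of 0.664 for WT replicate 3 and -0.603 for METTL3-KO replicate 3, and its part in the results below is given as values without those samples. All 8 colorectal epithelial markers examined were detected, with a summed level of 5324 to 6783 CPM (counts per 1000000 counts of the library) in WT and 7773 to 8772 CPM in METTL3-KO samples. That sum came mostly from KRT8, with a mean of 4118 CPM in WT and 5290 CPM in METTL3-KO samples. Of 6 fibroblast markers, COL1A2 and COL3A1 had 0 counts in all 6 samples and 3 were under the count minimum, and their summed level was 4.92 to 6.74 CPM in WT and 8.86 to 9.86 CPM in METTL3-KO samples. Of 6 immune markers, 3 were under the minimum, PTPRC among them, and the sum of 1013 to 1052 CPM in WT and 676 to 733 CPM in METTL3-KO samples came mostly from LYZ. Of 4 endothelial markers, PECAM1 and KDR had 0 counts in all samples, and the sum did not exceed 0.182 CPM. The part of these markers in the results was not tested. In bulk RNA, fewer cells of a type and less RNA per cell cannot be told apart.

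Sequences are given for the miR-200 seeds and for the words in the ZEB messages that pair with them. They are shown because the reads on the miR-200 genes were among the measurements that differed between the groups. The mature sequences below come from RefSeq (GRCh38.p14), with the seed, bases 2 to 8, in capitals. They fall into 2 seed classes, AAUACUG for miR-200b, miR-200c and miR-429 and AACACUG for miR-200a and miR-141, which differ at 1 base.
hsa-miR-200b-3p: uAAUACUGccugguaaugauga
hsa-miR-200c-3p: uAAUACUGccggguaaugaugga
hsa-miR-429: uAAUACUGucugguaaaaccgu
hsa-miR-200a-3p: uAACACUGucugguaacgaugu
hsa-miR-141-3p: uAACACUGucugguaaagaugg

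The DNA words that pair with these seeds, CAGTATT and CAGTGTT, were looked up in the 3'UTR of 1 transcript per gene. The ZEB1 3'UTR of 2540 bases held 9 matches (6 CAGTATT and 3 CAGTGTT), and the ZEB2 3'UTR of 5370 bases also held 9 (5 and 4). At least 1 match was found in 30.0% of 19025 human 3'UTRs, and 9 or more in 0.042%. ESRP1 had 2 matches and SNAI2 had 1, and the other 6 members had none. An example of each word in each gene is printed 5′ to 3′ on the gene's strand with the word in capitals (GRCh37). The ZEB1 examples lie at chr10:31816553-31816575 and chr10:31816966-31816988 on the plus strand, and the ZEB2 examples at chr2:145146612-145146634 and chr2:145146796-145146818 on the minus strand, all in the 3'UTR exon.
ZEB1 CAGTATT: tatcttatCAGTATTatcactct
ZEB1 CAGTGTT: atcagaatCAGTGTTtgtgattg
ZEB2 CAGTATT: ccatacatCAGTATTtttattat
ZEB2 CAGTGTT: attttgtaCAGTGTTaaggccta

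Per unit of exon length, HCT116 cells carried the epithelial genes of the panel in both genotypes. In WT samples, CDH1 stood at 215 ± 31.5 TPM (mean ± SD, n = 3), that is, counts per exon base scaled to a total of 1000000 over 35681 genes, ESRP1 at 146 ± 24.4, ESRP2 at 68.2 ± 7.68 and OVOL1 at 15.7 ± 0.682. The repressors and mesenchymal genes followed in the order SNAI1 (3.61 ± 0.0661), ZEB1 (0.404 ± 0.141), VIM (0.0899 ± 0.0608) and ZEB2 (0.0132 ± 0.00909). The order was the same in METTL3-KO samples, from CDH1 at 258 ± 21.2 TPM to ZEB2 at 0.0211 ± 0.00422 TPM. The sample ranges of neighbours in this order did not overlap, except that those of VIM and ZEB2 in WT samples overlapped when the longest transcript was used as the length.

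Of the 10 members, 8 had enough counts to be tested and CDH2 and SNAI2 had none. With an adjusted p under 0.05 taken as the threshold (edgeR), METTL3 loss came with higher CDH1, OVOL1 and SNAI1, none was lower, and 5 did not pass. Among all 22452 tested genes, 13.4% passed as higher and 13.4% as lower. The median log2 fold change of the 8 tested members was 0.25, against -0.02 for all tested genes, and the members were read one by one rather than as a group.

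**Figure D1:**
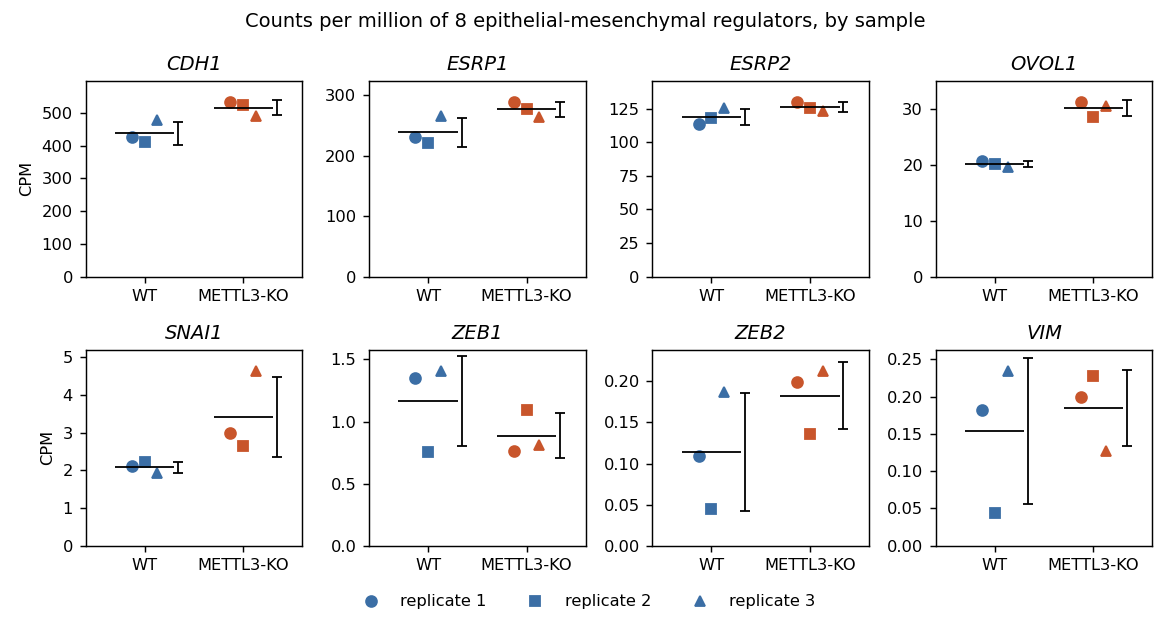
CPM (vertical axis of each panel, from 0) of the 8 tested members in the 3 WT (blue) and 3 METTL3-KO (orange) samples; marker shape gives the replicate, horizontal lines the group mean and bars the SD. The groups are separate for CDH1 (412 to 478 against 489 to 533 CPM), OVOL1 (19.6 to 20.6 against 28.7 to 31.3) and SNAI1 (1.92 to 2.21 against 2.64 to 4.63), and overlap in the other 5 panels. The share of all tested genes with separate groups is not given here, so separation is described only.

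OVOL1, a zinc finger repressor of ZEB1 and of other mesenchymal genes, gave the most stable difference. It lies on the plus strand at chr11:65554534-65564685 (GRCh37), and its level was 20.6, 20.2 and 19.6 CPM in WT and 31.3, 28.7 and 30.7 CPM in METTL3-KO samples (567, 456 and 418 counts against 944, 631 and 721). Every METTL3-KO sample lay above every WT sample, by a margin larger than the SD within WT (0.527 CPM) or METTL3-KO (1.36 CPM). The fold change was 1.5 (95% interval 1.33 to 1.70, log2 0.59, SE 0.0798, adjusted p = 0.000303, edgeR's quasi-likelihood test). The difference passed in all 14 alternative settings, with a log2 fold change between 0.56 and 0.62. A long noncoding RNA without a symbol in the count tables covers 27.3% of the OVOL1 exon bases on the opposite strand, and the strand setting of the counting is not given in the sources used here, so reads of these transcripts cannot be told apart there. OVOL1-AS1, which shares no exon base with OVOL1, had 22, 23 and 32 counts in WT and 38, 25 and 33 in METTL3-KO samples. Those groups overlapped (log2 fold change 0.23, adjusted p = 0.568, edgeR).

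SNAI1, which encodes the repressor Snail, was also higher, from a much lower level. The gene is at chr20:48599517-48605423 on the plus strand, with 58, 50 and 41 counts in WT and 90, 58 and 109 in METTL3-KO samples, or 2.11, 2.21 and 1.92 CPM against 2.99, 2.64 and 4.63 CPM. The groups did not overlap, but METTL3-KO replicate 3 lay well above the other samples. The fitted fold change was 1.63 (1.16 to 2.29, log2 0.71, SE 0.223, adjusted p = 0.0363, edgeR). Without METTL3-KO replicate 3 the log2 fold change was 0.44 and the call was lost (adjusted p = 0.121, edgeR). It was lost as well without METTL3-KO replicate 1 (adjusted p = 0.0536, edgeR), WT replicate 1 (adjusted p = 0.088) or WT replicate 2 (adjusted p = 0.069), where the log2 fold change lay between 0.72 and 0.81. Snail activity is set largely by the stability of the protein, which these counts do not measure.

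SNAI2 (chr8:49830157-49834299, minus strand), which encodes the related repressor Slug, had 0 counts in all 6 samples. A count of 0 allows up to 3 counts, which is 0.109 to 0.141 CPM in WT and 0.0995 to 0.137 CPM in METTL3-KO libraries, for counting error only. SNAI1 counts exceeded that floor by at least 13.67-fold to 36.33-fold in each library. Slug transcripts were not detectable at this depth.

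ZEB1 and ZEB2, zinc finger repressors whose messages carry the miR-200 words printed above, had few reads. ZEB1 (chr10:31607424-31818742, plus strand) had 37, 17 and 30 counts in WT and 23, 24 and 19 in METTL3-KO samples, with overlapping groups. Its level was 1.17 ± 0.362 CPM in WT and 0.887 ± 0.178 CPM in METTL3-KO cells (n = 3 each), with a log2 fold change of -0.42 (95% interval -1.07 to 0.22, adjusted p = 0.324, edgeR). As a fold, that interval ran from 0.475 to 1.17. The log2 value moved to -0.65 without WT replicate 2 and to -0.26 without replicate 3 of both groups, and it passed in none of the 14 alternatives. ZEB2 (chr2:145121931-145278624, minus strand) had 3, 1 and 4 counts in WT and 6, 3 and 5 in METTL3-KO samples. Those groups overlapped and the interval of the log2 fold change ran from -0.61 to 2.01 (adjusted p = 0.426, edgeR). The fitted value of 0.70 moved to 0.35 without WT replicate 2 and to 1.17 without WT replicate 3, and did not pass in either.

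More reads fell on the antisense neighbour of ZEB1 than on ZEB1. ZEB1-AS1, a divergent noncoding RNA that covers 4.6% of the ZEB1 exon bases, had 149, 149 and 113 counts in WT and 135, 110 and 122 in METTL3-KO samples. Its level was 5.77 ± 0.712 CPM in WT and 4.89 ± 0.368 CPM in METTL3-KO cells, and the log2 fold change of -0.24 did not pass (adjusted p = 0.212, edgeR). VIM-AS1 had at most 2 counts in a sample, and ZEB2-AS1 had 0 in all 6.

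The words CACCTG and CAGGTG, each the reverse complement of the other and known to be bound by SNAI and ZEB factors, were searched in the RefSeq promoter windows, 300 bases around a gene start. Windows were found for 4 of the 10 members: ZEB1, ZEB2, VIM and CDH2. The words were in 2 of the 7 ZEB1 windows and in no window of ZEB2, VIM or CDH2. Of 34796 windows of the same length, 20.6% held at least 1 word and 0.621% held 3 or more. Both shares are per window, and ZEB1 had 7 windows, so they do not give the share of genes with such a window. The ZEB1 window with 3 words is shown because ZEB factors belong to the proteins that bind them; each stretch is on the plus strand of GRCh38.p14, with the word in capitals and its first base at -242, -85 and 33 from the gene start, at chr10:31318966-31318989, chr10:31319121-31319146 and chr10:31319239-31319264.
ZEB1 word at -242: ccccaccaCACCTGaggaaaactt
ZEB1 word at -85: tgtcgtaaacCAGGTGcggtggggag
ZEB1 word at 33: cggatggcccCAGGTGtaagcgcaga

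CDH1, at chr16:68771195-68869440 on the plus strand, was the most abundant member per length and rose slightly. Its level was 425, 412 and 478 CPM in WT and 533, 525 and 489 CPM in METTL3-KO samples, resting on 9312 to 16079 counts each. The groups did not overlap, though WT replicate 3 and METTL3-KO replicate 3 lay closest to each other. The fold change was 1.18 (1.05 to 1.32, log2 0.23, SE 0.0761, adjusted p = 0.0407, edgeR). This call passed in 8 of 14 alternatives. It was lost when WT replicate 1 or 2 or METTL3-KO replicate 1 or 2 was left out (adjusted p from 0.133 to 0.159, edgeR). With replicate 3 of both groups left out, an alternative chosen after seeing the data, the log2 fold change was 0.33. Noncoding RNAs on the opposite strand cover 5.7% of the CDH1 exon bases, and the strand limit given for OVOL1 applies here too.

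CDH2, the N-cadherin gene at chr18:25512843-25757910 on the minus strand, had 0 counts in every sample, as SNAI2 did. CDH1 counts exceeded the floor of 3 counts for CDH2 by at least 3104-fold to 5360-fold in each library. VIM (chr10:17270240-17279592, plus strand), the intermediate filament that marks mesenchymal cells, had 5, 1 and 5 counts in WT and 6, 5 and 3 in METTL3-KO samples. The groups overlapped, and the interval of the log2 fold change ran from -1.05 to 1.56 (adjusted p = 0.785, edgeR). The log2 ratio of CDH1 to VIM counts was 11.79 ± 1.21 in WT and 11.49 ± 0.38 in METTL3-KO samples, a shift of -0.30 that was smaller than the spread in WT and changed sign without WT replicate 2.

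The splicing regulators were expressed at high levels in both genotypes, and their differences did not pass in the reported fit of all 6 samples. ESRP1 (chr8:95653302-95719694, plus strand) stood at 230, 221 and 266 CPM in WT and 289, 278 and 263 CPM in METTL3-KO samples. WT replicate 3 lay above METTL3-KO replicate 3, and replicates 1 and 2 of the groups were separate. The log2 fold change was 0.21 (0.03 to 0.39, SE 0.0820, adjusted p = 0.0803, edgeR). It passed without WT replicate 3 (0.30, adjusted p = 0.00166, edgeR), without replicate 3 of both groups (0.32, adjusted p = 5.14e-07) and when the samples were corrected for the length and GC content of transcripts (0.23, adjusted p = 0.0143). ESRP2 (chr16:68262936-68272005, minus strand) stood at 114, 118 and 125 CPM in WT and 130, 126 and 123 CPM in METTL3-KO samples, with overlapping groups and a log2 fold change of 0.08 (-0.07 to 0.24, adjusted p = 0.410, edgeR). Without replicate 3 of both groups, ESRP2 passed as well (0.14, adjusted p = 0.0147, edgeR). The log2 ratio of ESRP1 to ESRP2 counts was 1.00 ± 0.09 in WT and 1.13 ± 0.03 in METTL3-KO samples.

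Ratios between members within a sample do not depend on library scaling. The trend with transcript length need not cancel between genes of unlike length, and its part in the ratios was not tested. The longest transcripts of OVOL1 and ZEB1 have 2988 and 6250 bases. The log2 ratio of OVOL1 to ZEB1 counts was 4.16 ± 0.51 in WT and 5.11 ± 0.34 in METTL3-KO samples. Its sample values were 3.94, 4.75 and 3.80 against 5.36, 4.72 and 5.25, so the groups overlapped at 1 sample each. The log2 ratio of ZEB1 to CDH1 counts was -8.60 ± 0.43 in WT and -9.20 ± 0.27 in METTL3-KO samples, also with overlap, and these ratios were described without a test.

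**Figure D2:**
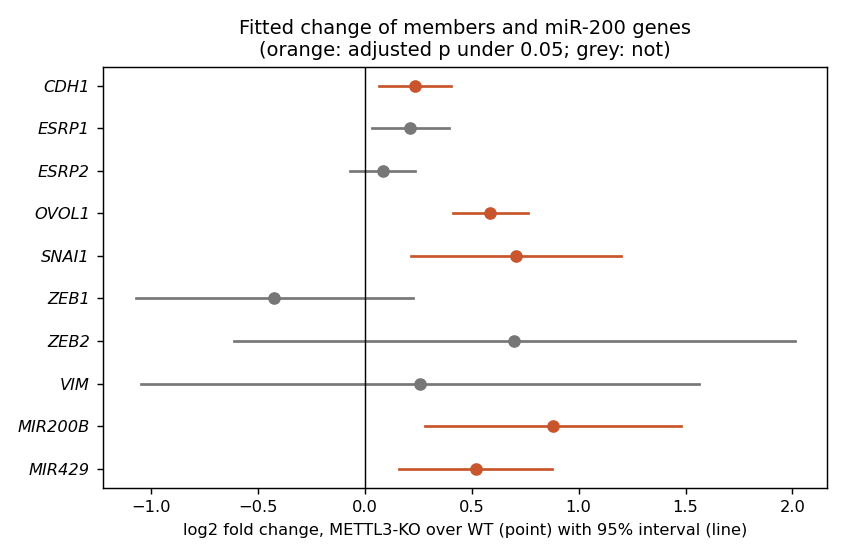
Fitted log2 fold change, METTL3-KO over WT (horizontal axis), with its 95% interval for the 8 tested members and 2 miR-200 genes; orange marks an adjusted p under 0.05. The intervals of OVOL1 (0.41 to 0.76), SNAI1 (0.22 to 1.20) and CDH1 (0.07 to 0.40) lie above 0, while those of ZEB1, ZEB2 and VIM span more than 1 log2 unit and include 0.

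**Figure D3:**
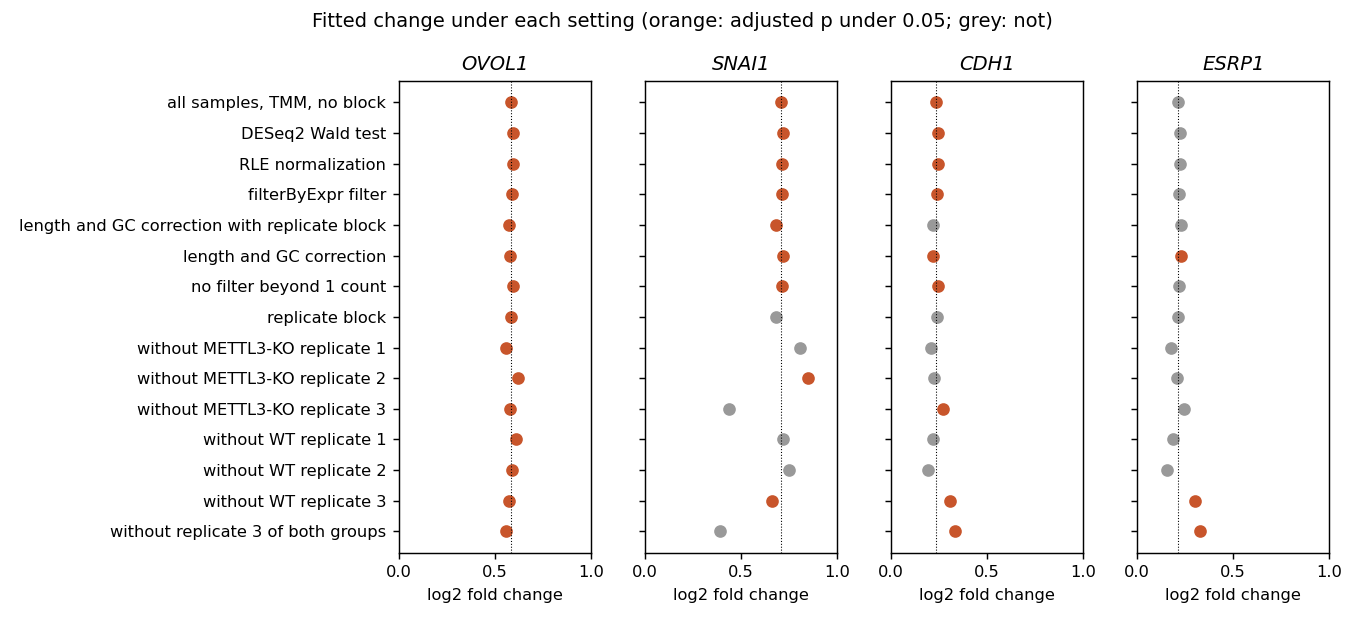
Fitted log2 fold change (horizontal axis) of OVOL1, SNAI1, CDH1 and ESRP1 under the reported fit (top) and 14 alternatives (rows); orange points passed an adjusted p of 0.05 and the dotted line is the reported value. OVOL1 passed in all 14 alternatives, SNAI1 in 8, CDH1 in 8 and ESRP1 in 3, and SNAI1 moved most, from 0.39 to 0.85.

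Reads on the genes of the miR-200 family, which lower ZEB1 and ZEB2, were few and partly higher in METTL3-KO cells. These are reads of longer transcripts that overlap the annotated microRNA genes, not mature microRNAs. MIR200B had 29, 19 and 18 counts in WT and 37, 40 and 51 in METTL3-KO samples, with no overlap (log2 fold change 0.88, SE 0.272, adjusted p = 0.0330, edgeR). MIR429 had 134, 120 and 78 counts in WT and 169, 154 and 175 in METTL3-KO samples, also without overlap as CPM (log2 fold change 0.52, SE 0.162, adjusted p = 0.0355, edgeR). MIR200A, from the same cluster on chromosome 1, had 28, 29 and 17 counts against 38, 25 and 38, with overlap, and did not pass (adjusted p = 0.326, edgeR). Since reads on these 3 neighbours can come from 1 primary transcript, they are not separate observations. MIR200C had 0 counts in WT and 2, 2 and 4 in METTL3-KO samples; it passed the threshold (adjusted p = 0.0352, edgeR), but with both groups about the floor of 3 counts per library no fold is given. MIR200C was chosen for mention after its values were seen, and it passed in only 1 of the 6 fits that each left out 1 sample. The list of miR-200 genes and antisense neighbours held 8 tested genes, of which 3 were higher and none lower. Among all tested genes, 13.4% were called in each direction. Of the 3, MIR200C met the count minimum only through its METTL3-KO counts, and MIR200B and MIR429 are neighbours. The count is therefore not read as a result about the family. The median log2 fold change of the list was 0.44, or 0.36 over the 7 genes other than MIR200C. None of the 8 passed without replicate 3 of both groups. The MIR200B call was also lost without METTL3-KO replicate 2 or 3 or WT replicate 1 or 2 (adjusted p from 0.0574 to 0.114, edgeR), and the MIR429 call without METTL3-KO replicate 2 or 3 or WT replicate 1 or 3 (adjusted p from 0.0517 to 0.117).

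The members act with other genes of the epithelial and mesenchymal programmes, which were described by counts and medians beside the 13.4% of tested genes called in each direction. Genes named below without passing the naming rule are said to be so. The 15 other epithelial transcription factors held 4 higher and 0 lower genes, with a median log2 fold change of 0.16. ELF5, an ETS factor of epithelial differentiation, rose from 2.19 to 9.32 CPM (log2 fold change 2.11, adjusted p = 5.40e-06, edgeR). KLF4, which restrains growth in differentiating gut epithelium, rose from 16.9 to 27.1 CPM (0.68, adjusted p = 0.000304, edgeR). The closest relatives in function did not pass: OVOL2 had 126, 126 and 128 counts in WT and 165, 116 and 144 in METTL3-KO samples (adjusted p = 0.741, edgeR), and GRHL2 had a log2 fold change of 0.15 (adjusted p = 0.189); both were chosen after their values were seen.

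Among 35 epithelial effector genes (keratins, tight junction and apical proteins), 11 were higher, none was lower and the median log2 fold change was 0.14. KRT20, a keratin of differentiated colonocytes, rose from 252 to 713 CPM (1.5, adjusted p = 2.29e-06, edgeR). The basement membrane anchor gene LAD1 rose from 210 to 391 CPM (0.90, adjusted p = 3.53e-05, edgeR). EPCAM, chosen after its values were seen, did not pass (0.01, adjusted p = 0.918, edgeR). The number of genes that passed ranged from 8 to 24 as samples were left out, singly or as replicate 3 of both groups.

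Of 35 mesenchymal effector genes, 26 were tested, with 3 higher, 4 lower and a median log2 fold change of -0.01. MSN, which encodes the membrane-actin linker moesin, fell from 531 to 173 CPM (-1.62, adjusted p = 3.61e-07, edgeR), with 14000, 11884 and 11876 counts in WT and 5364, 3938 and 3787 in METTL3-KO samples. The collagen cross-linking enzyme gene LOX fell from 2.56 to 0.838 CPM (-1.61, adjusted p = 0.000318, edgeR) and the receptor tyrosine kinase gene AXL from 5.07 to 2.36 CPM (-1.07, adjusted p = 0.000823, edgeR). In the other direction, LUM, a matrix proteoglycan gene, rose from 0.393 to 2.23 CPM (2.46, adjusted p = 0.000112, edgeR) and the actin-binding protein gene TAGLN from 18.9 to 32.2 CPM (0.77). FN1, the fibronectin gene, was lower (-0.83, adjusted p = 0.00334, edgeR) and COL5A2, a fibrillar collagen gene, was higher (1.77, adjusted p = 0.00275, edgeR). Both were chosen after their values were seen. COL5A2 and LUM rest on few reads. COL5A2 had 7, 4 and 7 counts in WT and 25, 19 and 22 in METTL3-KO samples, and LUM had 15, 9 and 5 against 77, 48 and 46. Mesenchymal genes thus passed in both directions, while VIM stayed near the floor.

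The genes whose products bind the E-cadherin tail or sit beside it mostly did not pass: of 17 adhesion partners, 3 were higher and 2 lower, with a median log2 fold change of 0.01. JUP, which encodes plakoglobin, rose from 607 to 829 CPM (0.45, adjusted p = 0.000681, edgeR) and CTNNA1, the alpha-catenin gene, from 583 to 685 CPM (0.23, adjusted p = 0.0178, edgeR). The nectin gene PVRL4 rose from 15.4 to 31.6 CPM (1.03, adjusted p = 1.04e-05, edgeR), while its relative PVRL3 fell from 28.4 to 17.7 CPM (-0.68, adjusted p = 0.000200, edgeR). ARVCF, a catenin of the p120 family, fell from 176 to 148 CPM (-0.25, adjusted p = 0.0282, edgeR). The calls of CTNNA1 and ARVCF were lost when replicate 1 or 2 of either group was left out (adjusted p from 0.0541 to 0.105 and from 0.0811 to 0.136, edgeR). The beta-catenin gene CTNNB1, chosen after its values were seen, had a log2 fold change of 0.10 (adjusted p = 0.284, edgeR).

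Of 20 other cadherin genes, 9 were tested, with 2 higher, 1 lower and a median log2 fold change of 0.90. That median is the value of CDH16, which had 6, 4 and 3 counts in WT and 8, 12 and 6 in METTL3-KO samples. CDH13 and CDH15, with larger values, also had 3 to 6 counts in each WT sample, and none of these 3 genes, chosen after their values were seen, passed. CDH17, the intestinal LI-cadherin gene, had 55, 53 and 57 counts in WT and 297, 217 and 227 in METTL3-KO samples (log2 fold change 2.08, adjusted p = 2.61e-06, edgeR). CDH7 rose from 1.21 to 3.26 CPM (1.40, adjusted p = 0.000229, edgeR), and CDH24 fell from 17.4 to 10.96 CPM (-0.67, adjusted p = 0.000279, edgeR). CDH11, a cadherin of mesenchymal cells chosen after its values were seen, had 0 counts in all 6 samples.

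Other transcription factors that can drive the mesenchymal switch were 18, of which 12 were tested, with 3 higher, none lower and a median log2 fold change of 0.20. SOX4 rose from 96.4 to 156 CPM (0.69, adjusted p = 4.02e-05, edgeR), TCF3, which encodes the E-box binding E2A proteins, from 116 to 170 CPM (0.56, adjusted p = 0.000144, edgeR), and ZNF703 from 57.9 to 77.2 CPM (0.41, adjusted p = 0.00464, edgeR). TWIST1 and TWIST2, chosen after their values were seen, had 0 counts in all 6 samples.

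The corepressors that SNAI and ZEB factors recruit passed in both directions, with 1 higher and 4 lower of 15 and a median log2 fold change of -0.12. CTBP1, which encodes 1 of the partners through which ZEB1 represses, fell from 237 to 129 CPM (-0.88, adjusted p = 1.16e-05, edgeR). Its relative CTBP2, chosen after its values were seen, did not pass (-0.10, adjusted p = 0.287, edgeR). AJUBA, a LIM protein that bridges Snail to methyltransferases, fell from 60.4 to 40.8 CPM (-0.57, adjusted p = 0.000587, edgeR) and the histone methyltransferase gene EZH2 from 105 to 84.8 CPM (-0.31, adjusted p = 0.00474, edgeR). HDAC1, a histone deacetylase gene, rose from 310 to 425 CPM (0.46, adjusted p = 0.000439, edgeR).

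Regulators of Snail and Slug protein turnover passed in both directions, 4 higher and 2 lower of 13 tested, with a median log2 fold change of 0.03. BTRC, which encodes the ubiquitin ligase subunit that recognises phosphorylated Snail, fell from 23.5 to 17.0 CPM (-0.47, adjusted p = 0.00266, edgeR), and COPS2, a COP9 signalosome gene, also fell (-0.26). GSK3B, the kinase gene whose product phosphorylates Snail for degradation, rose (0.39), as did the kinase gene PAK1 (0.32) and the ubiquitin ligase gene FBXO45 (0.38). The GSK3B call was lost when replicate 1 or 2 of either group was left out (adjusted p from 0.0515 to 0.0746, edgeR), and the COPS2 call without METTL3-KO replicate 1 or 2 or WT replicate 1 (adjusted p from 0.0518 to 0.0697).

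Among 12 other intermediate filament and linker genes, 11 were tested, with 4 higher, 2 lower and a median log2 fold change of 0.08. The cytolinker genes PLEC (0.51) and DST (0.54) and the nuclear lamin gene LMNA (0.30) were higher, and the lamin genes LMNB1 (-0.36) and LMNB2 (-0.33) were lower. DST, with 3096, 2271 and 3315 counts in WT and 5859, 4041 and 3698 in METTL3-KO samples, lost its call when replicate 1 or 2 of either group was left out (adjusted p from 0.0557 to 0.0766, edgeR).

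Of 15 other splicing factors linked to the switch, 11 were tested, with 2 higher, none lower and a median log2 fold change of 0.00. RBM47 and RBFOX2 each had a log2 fold change of 0.30, and both calls were lost when replicate 1 or 2 of either group was left out (adjusted p from 0.0581 to 0.113, edgeR). QKI, which promotes mesenchymal splicing and was chosen after its values were seen, had at most 1 count in a sample. Of 16 genes that carry exons known to be regulated by ESRP proteins, 4 were higher, none was lower and the median was 0.14. UAP1 (0.74), FGFR3 (0.55) and RALGPS2 (0.43) were higher, the last only with METTL3-KO replicates 1 and 2 and WT replicate 1 all kept (adjusted p from 0.0511 to 0.0577 without one of them, edgeR). CD44, chosen after its values were seen, did not pass (0.03, adjusted p = 0.807, edgeR). Gene counts do not show which exons were used, so ESRP activity was not measured here.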

How the data were processed

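Paired-end RNA-seq of 3 WT and 3 METTL3-KO HCT116 samples was used. The authors mapped reads to hg19 with TopHat2 (version 2.0.11 in the submitters' processing notes), with read pairs counted per gene by HTSeq; the deposited values are these raw counts, 20936091 to 30142144 on genes per sample. Reads without a feature (6.03% to 9.08%), ambiguous or not unique were left out by that counting. Genes with fewer than 5 counts in both groups were removed, and 22452 genes were compared by edgeR's quasi-likelihood test (edgeR 4.0.16, R 4.3.3, TMM, two-sided, Benjamini-Hochberg), tested on simulated data first. CPM, counts per 1000000, uses TMM-scaled library sizes and TPM the union of exons in a GRCh37 annotation that matched 35681 symbols. A deposited count of 0 was given a floor of 3 counts. Intervals are 95%.

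The members and lists were chosen with earlier results of these data known. Named genes were the 10 members, METTL3, up to 3 genes per list and direction with the smallest p at an adjusted p under 0.05 and at least 1 CPM on average (the 2 most abundant where a list had none), and antisense neighbours with a count. A gene that this rule names is not reported here. Alternatives were DESeq2 1.42.0, RLE normalization, other count filters, a length and GC correction (splines with 5 degrees of freedom, fitted above a mean log2 CPM of 3), a block on replicate numbers, the removal of each sample in turn, and, chosen after seeing the data, leaving out replicate 3 of both groups.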

Additional observations from a re-analysis of the deposited data

How the results depend on the processing

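METTL3 and OVOL1 passed in all 14 alternatives. The replicate numbers did not pair the samples: deviations of same-numbered samples correlated at -0.586, -0.39 and -0.784. In the fit with a replicate block, 3275 genes passed in place of 6018, and 1 member (OVOL1), 3 cadherin partners, 3 corepressors, 2 turnover genes, 2 epithelial transcription factors, 3 filament genes, 0 splicing factors, 2 genes with ESRP-regulated exons and 0 miR-200 genes. The length and GC correction gave 8 cadherin partners, 5 other EMT factors, 9 corepressors, 18 epithelial effectors and 6 splicing factors, and with the block 4 splicing factors. With a sample or replicate 3 of both groups left out, 4129 to 9135 genes passed, 1 to 4 members, 3 to 11 cadherin partners, 3 to 4 other cadherins, 3 to 7 other EMT factors, 4 to 7 corepressors, 3 to 10 turnover genes, 3 to 10 epithelial factors, 8 to 24 epithelial and 7 to 11 mesenchymal effectors, 4 to 7 filament genes, 0 to 6 splicing factors, 2 to 10 genes with ESRP-regulated exons and 0 to 2 miR-200 genes. Leaving out replicate 3 of both groups was added after seeing the data. Among the fits with samples left out, it alone gave the highest count of all genes, cadherin partners, corepressors, turnover genes and epithelial factors. The same held for epithelial and mesenchymal effectors, splicing factors and genes with ESRP-regulated exons. With 1 sample left out, the shift of a log2 ratio, METTL3-KO minus WT, ranged from -0.70 to 0.40 for CDH1 to VIM. The shift was 0.08 to 0.17 for ESRP1 to ESRP2 and 0.77 to 1.24 for OVOL1 to ZEB1. It was -0.85 to -0.45 for ZEB1 to CDH1 and -1.61 to -0.98 for ZEB1 to ZEB2. The longest transcript as length gave WT means of 0.0287 TPM for ZEB2, 2.87 for SNAI1 and 82.1 for ESRP2. With samples left out, VIM ranged from -0.14 (without WT replicate 2) to 0.61 (0.79 without replicate 3 of both groups) and VIM-AS1 from -0.041 (without WT replicate 1) to 1.48. Of 59 list genes that passed, 34 did so in all 14 alternatives. ZEB1, ZEB2 and VIM rest on 1 to 37 counts per sample, which limits their intervals. The causes were not tested.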

Other observations

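Some of the genes used above as cell type markers also differed, and whether they mark cell type or cell state was not tested. VIL1, which encodes the microvillus protein villin, had 7726, 6433 and 5978 counts in WT and 13638, 9195 and 10167 in METTL3-KO samples, and rose from 282 to 434 CPM (log2 fold change 0.62, adjusted p = 5.14e-05, edgeR's quasi-likelihood test). KRT19, a keratin of simple epithelia that is also among the epithelial effector genes counted above, was higher as well (0.82, adjusted p = 0.000204, edgeR). The intestinal transcription factor genes did not pass: CDX2 stood at 7.68 CPM in WT and 6.79 CPM in METTL3-KO cells (-0.19, adjusted p = 0.457, edgeR) and CDX1 at 2.99 and 3.84 CPM (0.34, adjusted p = 0.188, edgeR). LYZ, the lysozyme gene, which Paneth cells and leukocytes express, fell from 1028 to 699 CPM (-0.56, adjusted p = 0.000120, edgeR), while the leukocyte gene PTPRC had at most 1 count in a sample. These genes were chosen after their values were seen.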
